A study of Mus musculus with 17 samples.

Results

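The genes that write and erase DNA methylation were examined in open chromatin of nucleus accumbens neurons: the methyltransferases Dnmt1, Dnmt3a and Dnmt3b, the dioxygenases Tet1, Tet2 and Tet3, and the demethylation and stress-response genes Gadd45a, Gadd45b and Gadd45g. Every peak of the 17 ATAC-seq libraries that overlapped one of these 9 gene bodies, extended by 10 kb on each side, was taken, which gave 165 merged regions of 281189 in the series. Of these, 86 were kept because at least 2 libraries of 1 group had called them, 26 were called in all 17 libraries and 55 in a single library. Regions were assigned by gene name and position, and the genes themselves were chosen with earlier results of these data known.

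ATAC-seq marks DNA that a transposase can reach, and the nuclei were those of neurons, sorted by the nuclear protein NeuN from the bilateral nucleus accumbens, a reward region of the ventral striatum, of C57BL/6J mice aged 52 to 54 days. Mice were killed 1 hour after an intraperitoneal dose of 10 mg/kg cocaine, or were controls that had received no cocaine, and no vehicle injection of the controls is described. Females were in diestrus (low estrogen, high progesterone) or in proestrus (high estrogen). Each library pooled 3 animals, and there were 3 libraries of each treatment in diestrus and in proestrus, 3 of male controls and 2 of males given cocaine. The group of diestrus cocaine library 2, whose stage label is blank, was read from its title.

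DNA methylation is placed on cytosines next to guanines and, in neurons, also at other cytosines. Dnmt1 copies the mark after DNA replication, whereas Dnmt3a and Dnmt3b place it anew, and Dnmt3a is the main such enzyme of mature neurons. The Tet enzymes oxidize methylcytosine, the first step of its removal, and the Gadd45 proteins aid excision of the oxidized base by repair enzymes. Gadd45b and Tet1 are known as genes whose transcripts respond to neuronal activity.

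Libraries held 75458 to 157005 peaks on chromosomes 1 to 19 and X, covering 42.2 to 107 Mb. Both male cocaine libraries stood apart, with 50.7 and 42.2 Mb inside peaks against at least 65.4 Mb in every other library. They also called 36 and 32 of the member regions, where the other libraries called between 50 and 80. The background pileup, a measure of relative depth recovered from the fold enrichments, lay between 6.26 and 9.55 reads. Promoters of all 4 neuron markers and all 7 medium spiny neuron markers were called in every library, and none of the 3 microglia or 2 endothelium markers in any. Of 4 astrocyte markers, proestrus cocaine library 2 called 2 (Aldh1l1 and Slc1a3) and diestrus cocaine library 3 called 1 (Slc1a3), and no other library called any. Of 5 oligodendrocyte markers, these libraries called 5 and 3, and every other library called 2 (Mbp and Olig1). The part of these libraries in the results was not tested beyond the values without them given below.

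Sequences of the reference mouse genome (GRCm38, RefSeq) are shown for 6 places that the results refer to. The first pair is the summit, with 100 bases on each side, of an intronic Tet1 region that changed in several comparisons (chr10:62851164-62851364, plus strand) and of an intronic Dnmt3b region called in male controls alone (chr2:153680016-153680216, plus strand). Capitals mark AP-1 letters, the site bound by Fos and Jun proteins, searched as TGACTCA or TGAGTCA, which are each other's reverse complement.
Tet1 intron: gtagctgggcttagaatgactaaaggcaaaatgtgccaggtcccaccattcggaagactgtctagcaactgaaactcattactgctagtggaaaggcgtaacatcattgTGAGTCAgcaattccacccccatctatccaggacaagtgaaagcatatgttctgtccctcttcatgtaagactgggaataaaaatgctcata
Dnmt3b intron: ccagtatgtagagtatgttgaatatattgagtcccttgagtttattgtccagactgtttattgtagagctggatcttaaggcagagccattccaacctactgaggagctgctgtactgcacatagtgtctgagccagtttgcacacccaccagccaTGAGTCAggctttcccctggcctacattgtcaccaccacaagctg
The other set is the 120 bases before 4 start sites on the minus strand, read 5′ to 3′ with CG in capitals: a Tet1 start that was open (chr10:62865305-62865424), a Tet1 start that was not (chr10:62887513-62887632), a Dnmt1 start that was open (chr9:20952980-20953099) and one that was not (chr9:20959889-20960008).
Tet1 open internal start: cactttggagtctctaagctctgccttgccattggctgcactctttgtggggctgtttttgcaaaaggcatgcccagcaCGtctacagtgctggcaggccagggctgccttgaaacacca
Tet1 closed coding start: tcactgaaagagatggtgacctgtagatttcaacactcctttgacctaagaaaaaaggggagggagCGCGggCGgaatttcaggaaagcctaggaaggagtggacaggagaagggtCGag
Dnmt1 open start: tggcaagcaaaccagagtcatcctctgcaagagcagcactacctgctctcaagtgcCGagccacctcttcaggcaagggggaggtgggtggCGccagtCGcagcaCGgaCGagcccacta
Dnmt1 closed upstream start: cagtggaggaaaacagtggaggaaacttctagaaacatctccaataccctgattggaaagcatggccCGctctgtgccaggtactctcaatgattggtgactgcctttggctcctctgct
These stretches held 1, 4, 5 and 1 CG, against a median of 5 (quartiles 1 and 11) over 58504 protein-coding transcripts. An open start thus had 1 CG at Tet1 and 5 at Dnmt1.

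To determine which start sites of the family were accessible in these neurons, the peaks over annotated 5′ ends were listed. All values in this paragraph are fold enrichments, the height of a peak over the background of its own library. At Dnmt1 (chr9:20907209-20959888, minus strand), the start sites between 20952605 and 20952979 lay in a peak in 17 of 17 libraries, with a median of 20.5 (13.2 to 30.1). The upstream Dnmt1 start at 20959888 lay in no peak in any library. At Dnmt3a (chr12:3806007-3914443, plus strand), the first starts were open in 17 of 17 libraries, with a median of 11.7 (8.91 to 17.2). The start of the short Dnmt3a isoform at 3891744, known as Dnmt3a2 and transcribed from an internal promoter, was inside a peak in 6 of 17 libraries. They were 1 diestrus control, 2 diestrus cocaine, 2 proestrus control and 1 proestrus cocaine libraries, and 0 of the 5 male libraries. The neighbouring start at 3891728 was inside a peak in 7 of 17, 2 of them proestrus cocaine and 0 male. Other internal coding starts, at 3885449 and 3894824, were inside a peak in 14 and 16 of 17, male libraries among them. Dnmt3b (chr2:153649450-153687730, plus strand), which is mainly an enzyme of early development, had weak peaks at its coding starts, in only some of the libraries. The start at 153649454 was inside a peak in 5 of 17 libraries, with a median of 3.03 (2.85 to 4.08). The coding start at 153649617 was inside a peak in 8 of 17, with a median of 2.9 (2.68 to 4.08).

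Tet1 (chr10:62804570-62908996, minus strand) differed from the other Tet genes. None of its 8 coding start positions checked here lay in a peak in any library, while the start of a processed transcript inside the gene (start at 62865304) lay in a peak in 17 of 17, with a fold enrichment of 10.7 (8.12 to 16). A shorter Tet1 isoform from an internal promoter is known from neurons, and whether it starts at this position was not tested. Tet2 (chr3:133463679-133545139, minus strand) was open at its start in all 17 libraries, with a median of 22.5 (17.2 to 31.3). Tet3 (chr6:83362373-83459084, minus strand), the Tet gene with the most transcript in brain, was open at 83441675 with a median of 26.5 (19.3 to 36.8) and at the start further upstream, 83456392, with a median of 5.93 (4.77 to 7.72). Its most upstream start, 83459084, was in no peak. The promoters of Gadd45a (chr6:67035096-67037457, minus strand), Gadd45b (chr10:80930073-80932204, plus strand) and Gadd45g (chr13:51846678-51848468, plus strand) were open in all 17 libraries, with medians of 11 (6.85 to 18), 25.8 (17.8 to 34.6) and 19.2 (13.9 to 24). A fold enrichment is a height in 1 library and is no measure of transcription.

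**Figure D1:**
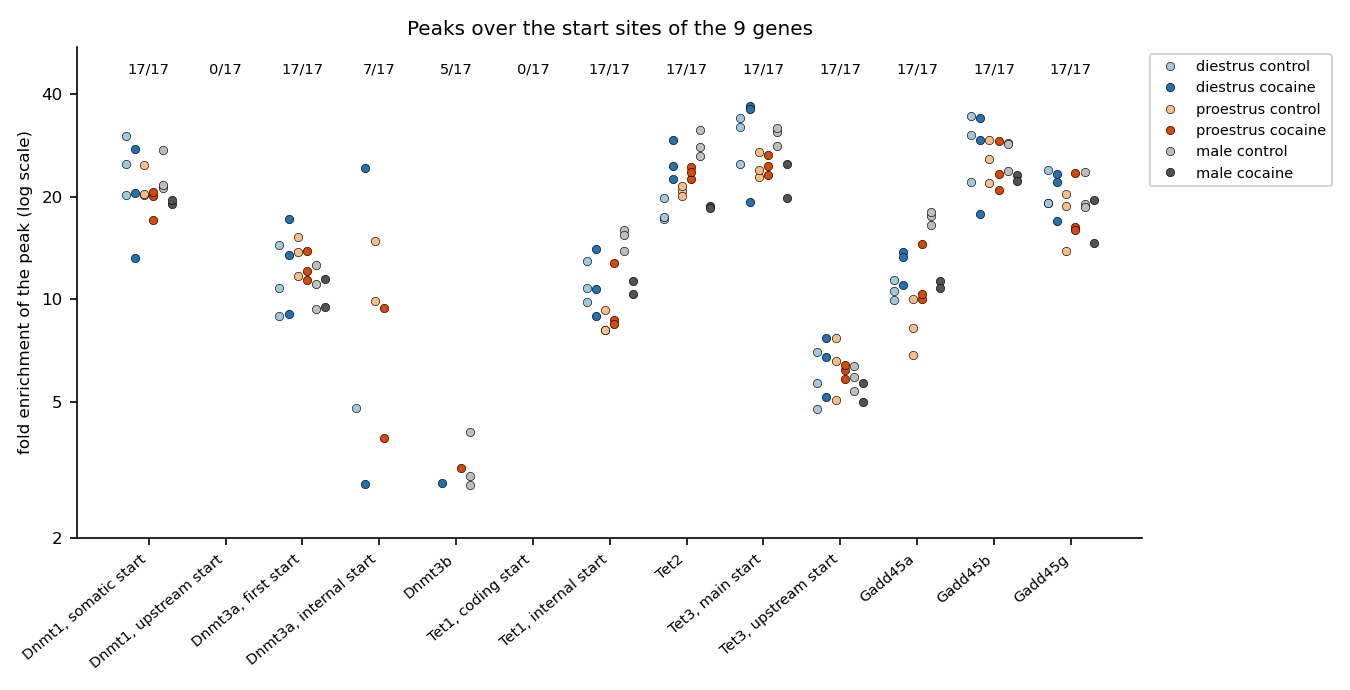
Fold enrichment of the peak over 13 start sites of the 9 genes (log scale), 1 point per library and 1 colour per group, with the number of libraries that had a peak there written above. The upstream Dnmt1 start and the Tet1 coding start drawn, the one at 62887512, have no point (0 of 17). The Dnmt3b start has 5 and lies near 3, and the Tet1 internal start has all 17. The Dnmt3a internal start drawn is the one at 3891728, with 7.

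The family also differed in how much of each gene was open. Dnmt3a was covered by peaks over a mean of 53.4% (SD 16.7, n = 17 libraries) of its 128-kb window, from 18.5% to 75.2%, whereas the median protein-coding gene window was 3.99% open. That placed Dnmt3a at percentile 99 of 21755 windows. Of 2235 windows at least as long only 4 were as open, with Dnmt3a itself included in both counts. Gadd45b came next with 41.2% ± 18 of 22.1 kb, then Gadd45g with 25.4% ± 1.98, Tet3 with 21.9% ± 7.71 and Gadd45a with 11.2% ± 2.91 (SD, n = 17). Tet2 (6.79% ± 1.76), Tet1 (3.72% ± 1.12), Dnmt1 (3.56% ± 1.13) and Dnmt3b (1.02% ± 0.466) were near or below the middle of all windows, at percentiles 64, 48.4, 47.4 and 29.4. The spread over libraries covers all 6 groups, and the neighbours Dnmt3a and Gadd45b, Gadd45g and Tet3, and Tet1 and Dnmt1 lay within 1 SD of each other. In proestrus control 3 Gadd45b (78.1%) was more open than Dnmt3a (75.2%).

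The open stretches of Dnmt3a, Tet3 and Gadd45b were broad domains rather than single peaks. Of the 86 kept regions, 13 (15.1%) were wider than 5 kb, against 2.99% of all 147420 kept regions. Dnmt3a held 6 of them, the widest 25237 bases at its first starts, Tet3 held 3, Gadd45b 2, and Tet2 and Gadd45g 1 each. The widest region of Gadd45b was not its promoter but a 15575-base region downstream (80935893 to 80951467), and that of Tet3 (16828 bases) covered its main start. Summits of kept member regions had a median of 1.49 CpG per 100 bases, against 0.995 over all kept regions. AP-1 letters were present in 7 of the 86 (8.14%, against 10.1% of all kept regions), and the cAMP response element TGACGTCA, a palindrome that does not contain the AP-1 letters, in 0 (against 0.502%). The windows also held the promoter of Eif3g, downstream of Dnmt1, the start of Dnmt3c, a germline paralog next to Dnmt3b, and parts of S1pr2 and Bola3.

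**Figure D2:**
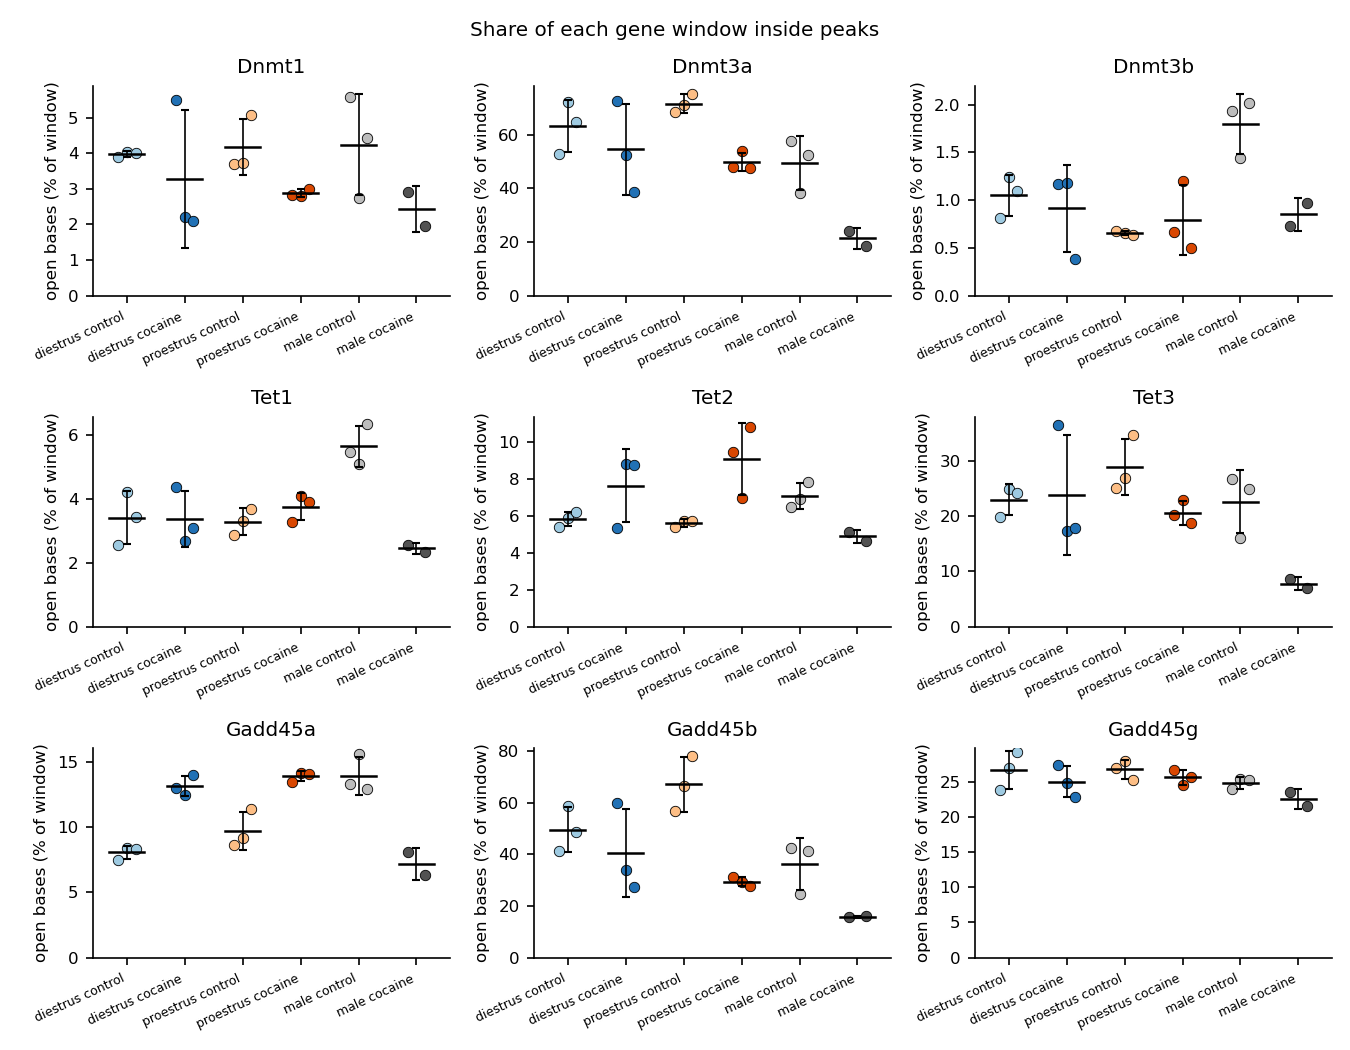
Percent of each gene window (gene body and 10 kb on each side) inside peaks, 1 point per library, with the mean and SD of each group as a line and bars. Dnmt3a and Gadd45b are the most open and spread the most (18.5% to 75.2% and 15.6% to 78.1%), while Gadd45g stays between 21.5% and 29.2% in all 17 libraries.

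To ask whether males and females differed before cocaine, male controls were set against the mean of the diestrus and proestrus controls. The comparison used the fold enrichment of each region called in all 17 libraries, quantile-normalized, in 1 limma fit over 36847 regions. Of the 26 member regions, 4 were higher in males and 1 lower, where 12.1% and 11.9% of all regions were called at an adjusted p of 0.05. The members' share was 15.4% higher and 3.85% lower, so the higher share was near the background. Their median log2 difference was -0.11, against -0.01 over all regions.

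The strongest member was an intronic Tet1 region (chr10:62850676-62851870), 57732 bases into the gene, the region with the AP-1 letters printed above. Fold enrichment there was 11.2, 12 and 9.77 in male controls, 4.65, 3.91 and 5.08 in diestrus controls and 4.86, 4.06 and 3.7 in proestrus controls. Every male control lay above every female library of either treatment. The difference was 1.06 on the log2 scale (SE 0.138, adjusted p = 1.8e-05, limma), or 2.08-fold, and it was called under every alternative setting and without each library in turn. The open Tet1 internal start (chr10:62864988-62867318) had 13.9, 16 and 15.4 in male controls, 9.81, 12.9 and 10.8 in diestrus controls and 8.13, 8.12 and 9.29 in proestrus controls. It too was higher in males, by 0.39 (SE 0.128, adjusted p = 0.0326, limma), a call lost with median centring (adjusted p = 0.0819) and without any of 5 single libraries (up to 0.167).

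The promoter of Gadd45a (chr6:67035409-67038403), a gene induced by DNA damage and stress, had a fold enrichment of 17.6, 16.5 and 18 in male controls, 9.94, 11.4 and 10.6 in diestrus controls and 8.24, 6.85 and 10.1 in proestrus controls. The groups did not overlap, and males were 1.56-fold higher (log2 0.64, SE 0.126, adjusted p = 0.00105, limma), without an exception among the alternatives. A Dnmt3b intron (chr2:153668747-153669176), the only Dnmt3b region called in all libraries, had 7.27, 5.78 and 6.81 in male controls and 3.13 to 4.05 in the 6 female controls. It was higher by 0.54 (SE 0.162, adjusted p = 0.0201, limma), a call lost without proestrus control 3, male control 1 or male control 3 (up to 0.0828). The region that spans the end of the Dnmt3a gene and bases downstream (chr12:3909048-3922910) was lower by 0.55 (SE 0.147, adjusted p = 0.0102, limma). Its unscaled values overlapped, with 22.9, 15.7 and 21.6 in males, 23.1, 28.8 and 27.9 in diestrus and 22.1, 21 and 23.6 in proestrus. The call was lost with no scaling (adjusted p = 0.26) and without male control 2 (0.108).

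**Figure D3:**
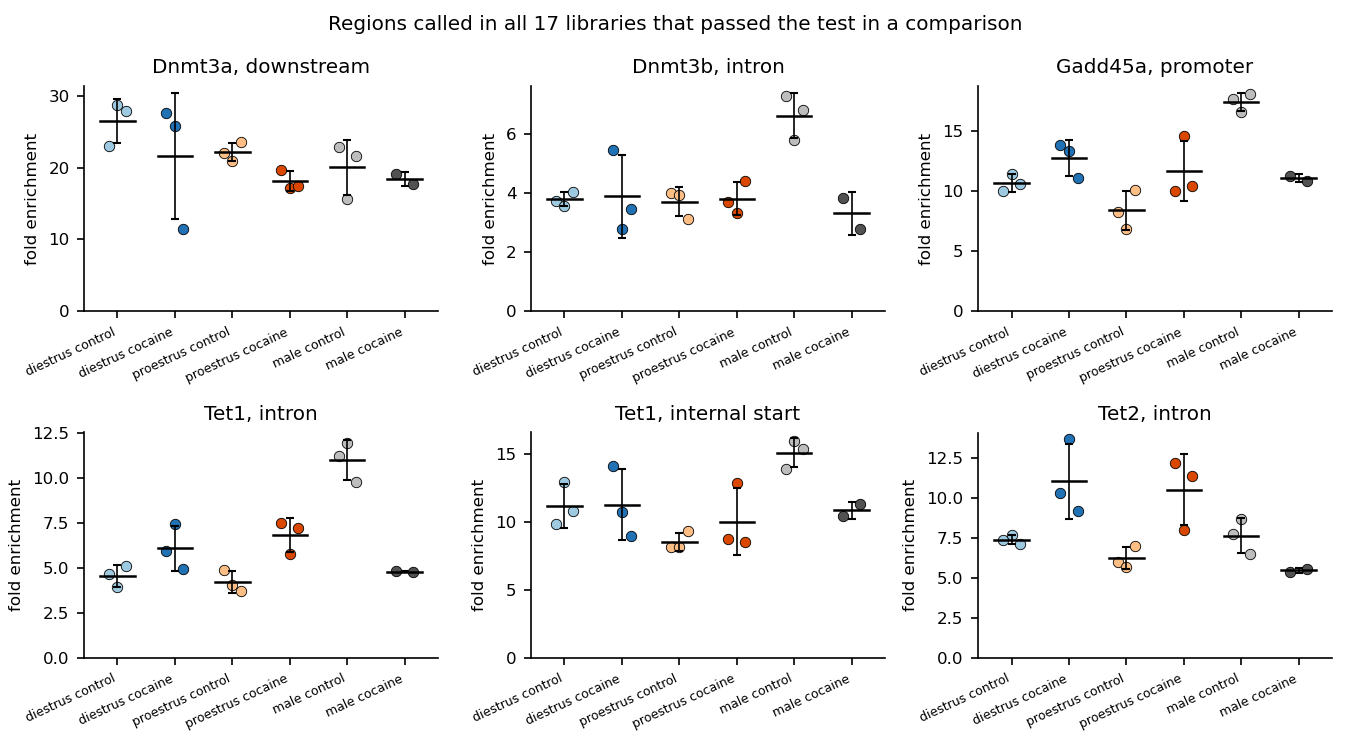
Fold enrichment, 1 point per library, in the 6 member regions that passed the test in at least 1 comparison, with the mean and SD of each group. Male controls stand above the other groups in the Tet1 intron (9.77 to 12) and at the Gadd45a promoter (16.5 to 18), and both male cocaine libraries lie in the range of the females.

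Peak calls gave the same comparison a second readout. A region called in all libraries of 1 group and none of the other was counted as separating them. Against diestrus controls, 5 member regions were called in male controls alone and 2 in diestrus alone (9.05% and 3.02% of all kept regions). Against proestrus controls, the numbers were 7 and 6 (10.5% and 1.42%). Between diestrus and proestrus controls they were 1 and 1 (3.96% and 0.792%). As shares of the 86 kept regions, the male-only counts were 5.81% and 8.14%, both below the background, and the proestrus-only count against males was 6.98%, above it.

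Male controls alone, of all 17 libraries, called 3 regions: the Dnmt3b intron printed above (153679893 to 153680364, median fold enrichment 4.17), a Tet2 intron (133522440 to 133522761, 2.74) and a Tet3 intron (83372665 to 83373038, 3.03). These are weak peaks, and DNA outside a called peak can still be accessible. The share of all kept regions called in male controls alone, of all 17 libraries, is not given here. The 3 regions are therefore not shown to be a trait of these genes. The regions called in proestrus but not male controls were 4 Dnmt3a regions (summits 43501, 96303, 98185 and 102660 bases into the gene), 1 Tet3 intron (54183 bases) and 1 downstream of Gadd45b (5418 bases). The merged region at the Dnmt3b promoter (153649279 to 153649825) was called in 3 of 3 diestrus and 3 of 3 male controls and in 0 of 3 proestrus controls. Within it, the starts from 153649450 to 153649454 lay in a peak in 0 diestrus, 0 proestrus and 3 male controls. The start at 153649617 lay in a peak in 3 diestrus, 0 proestrus and 2 male controls. The region's peaks were low in every library that called them, between 2.68 and 4.08.

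**Figure D4:**
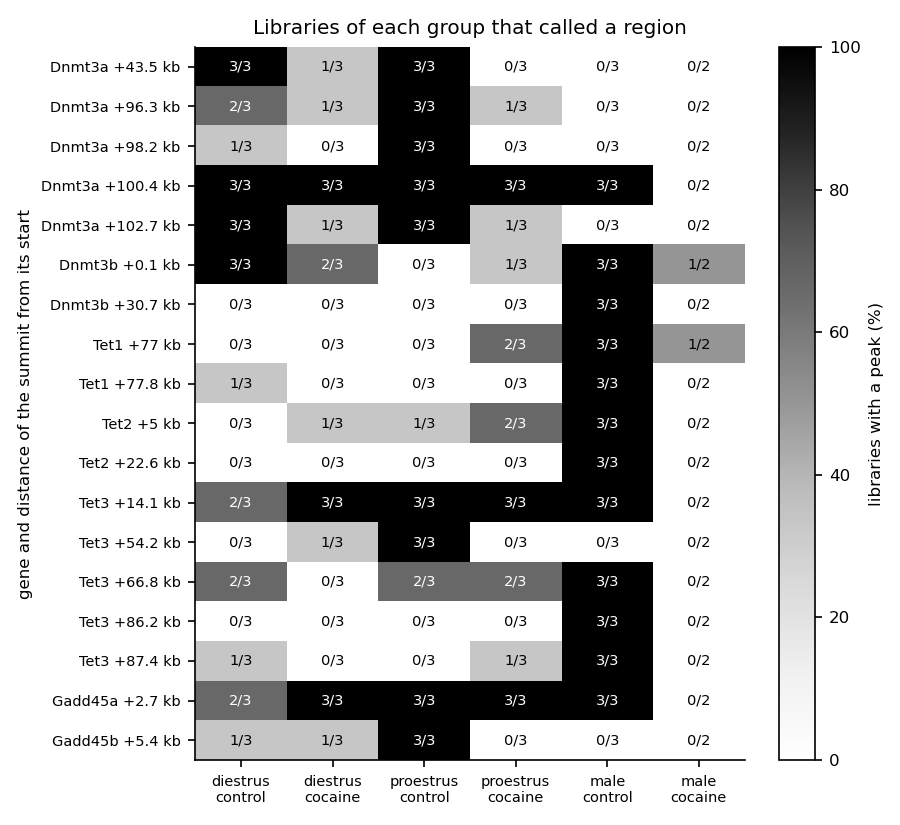
Member regions that were called in all libraries of 1 group and none of another in at least 1 comparison, with the share of each group's libraries that called them (grey scale, percent) and the number written in each cell. Rows give the gene and the distance of the summit from its start in kb. The Dnmt3b, Tet2 and Tet3 introns called in male controls alone are filled in that column only.

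To assess whether cocaine changed the family whatever the sex, calls were compared over 8 cocaine and 9 control libraries by Fisher's exact test (two-sided). None of the 33 member regions tested was called more or less often (0% of 64304 regions in either direction). At an unadjusted p under 0.05, 0 of the 33 were called more often and 5 of the 33 less often, against 3.81% and 9.23% of all regions. The members' share was thus below that of all regions for more often and above it for less often, which was not tested. The smallest p was 0.0152 (adjusted p = 0.278, Fisher's exact test), at a region upstream of Gadd45b.

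In diestrus, 0 of 26 member regions passed the test of fold enrichment after cocaine (4.65% higher and 4.59% lower over all regions, smallest member adjusted p = 0.0526, limma). At an unadjusted p under 0.05, 4 were higher and 3 lower, counts that were not set against all regions. Of the alternative settings, 4 called 1 to 3 members higher. Over all regions these called 1939 to 2071 of 36847 higher, and 1441 of 52318 with regions called in at least 14 libraries. No member region was gained or lost by peak calls either (1.16% and 1.26% of all kept regions). With 1 library fewer the rule is easier to meet, and 6 were lost without diestrus cocaine 1 (7.34% of all regions then) and 5 without diestrus control 1 (3.38%).

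In proestrus, 2 of 26 member regions rose (7.69%, against 2.28% of all regions) and 0 fell (1.97%). At an unadjusted p under 0.05, 3 were higher and 1 lower, counts that were not set against all regions. The first to rise was the Tet1 intron with the AP-1 letters, with 7.51, 5.78 and 7.23 in proestrus cocaine against 4.86, 4.06 and 3.7 in proestrus controls. All cocaine libraries lay above all controls, a rise of 1.54-fold (log2 0.62, SE 0.159, adjusted p = 0.0318, limma). The second was a Tet2 intron (chr3:133496353-133497904), 48025 bases into the gene, with 12.2, 8.02 and 11.4 against 6.02, 5.69 and 7.01. It rose by 1.62-fold (log2 0.69, SE 0.17, adjusted p = 0.0262, limma), and its groups did not overlap. Both calls were lost when only these groups were fitted (adjusted p = 0.0611 for Tet1 and 0.055 for Tet2), and the Tet2 call was lost with GC correction (0.0558). Leaving out single libraries ended the Tet1 call in 4 cases and the Tet2 call in 5 (up to 0.127 and 0.114). Without proestrus cocaine 2, the library with glial marker peaks, the log2 differences were 0.73 for Tet1 (adjusted p = 0.0129, limma) and 0.90 for Tet2 (0.00426).

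The diestrus values of the same regions were 5.94, 7.42 and 4.94 after cocaine against 4.65, 3.91 and 5.08 at Tet1, where the groups overlapped, and 10.3, 13.7 and 9.19 against 7.36, 7.7 and 7.16 at Tet2, where they did not. The cocaine effect in diestrus minus that in proestrus passed the test at none of the 26 member regions (0% of all regions in either direction, smallest adjusted p = 0.653, limma). At an unadjusted p under 0.05, 1 member region was higher and 0 lower, counts that were not set against all regions. A difference between the stages was therefore not shown for any of them.

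Peak calls in proestrus gave 0 gained and 4 lost member regions (2.45% gained and 1.64% lost over all kept regions, 4.65% of the members lost). Those lost were a Tet3 intron (83404418 to 83405273), a region downstream of Gadd45b (80935220 to 80935796) and a Dnmt3a intron (3849046 to 3849768) and coding exon (3903949 to 3904486). Their median fold enrichments were 2.65, 2.75, 2.97 and 2.86, all weak peaks. Without proestrus cocaine 4, 9 were lost (2.27% of all regions then), and without proestrus cocaine 2, 3 were gained (6.4%). The 4 lost regions were also absent from male controls, and the same proestrus controls served both comparisons.

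In males, the Tet1 intron went the other way. It had 4.81 and 4.77 after cocaine against 11.2, 12 and 9.77 in controls, a fall to 0.61-fold after normalization (log2 -0.71, SE 0.178, adjusted p = 0.0146, limma). It was the single member region to pass (0 higher and 1 lower, against 3.26% and 4.73% of all regions). With no scaling the fall was -1.19. The call was lost without male control 2 (adjusted p = 0.0672), male cocaine 1 (0.119) or male cocaine 2 (0.096). The difference between the cocaine effect in males and the mean effect of both female stages was tested directly. At the Tet1 intron it was -1.21 (SE 0.21, adjusted p = 0.00142, limma), a call kept under every alternative and without each library in turn (up to 0.0153). At the Gadd45a promoter, 11.3 and 10.8 in male cocaine libraries against 16.5 to 18 in controls, it was -0.59 (SE 0.192, adjusted p = 0.0405, limma). This call was lost with median centring (0.122) and without any of 10 single libraries (up to 0.139). These 2 were the only members called, both lower (8.29% of all regions lower, 8.17% higher). The male controls enter both this contrast and the comparison with female controls.

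Peak calls in males gave 0 gained and 10 lost member regions (1.66% and 16.8% of all kept regions). The lost share of the members was 11.6%, below the background, and both male cocaine libraries had the smallest total of open bases. Without male control 2, 18 were lost (24.7% of all regions then). The 10 lost regions lay in Tet3 (4), Tet2 (2) and Tet1, Dnmt3a, Dnmt3b and Gadd45a (1 each). All lay within introns except 1 downstream of Gadd45a (67034187 to 67035289), and their median fold enrichments lay between 2.63 and 4.21.

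Because Dnmt3a and Gadd45b lie in broad open domains, in which single summits say little, the open bases of each gene window were compared as well, a measure added after the data were seen. Open bases were expressed as a share of all open bases of the library, called library-scaled here, and log2 values of 16883 protein-coding windows were fitted with limma. In proestrus, 1 of 9 windows was higher after cocaine and 2 were lower (11.5% and 18.5% of all windows). Gadd45b was 31.1%, 29.4% and 27.7% open in proestrus cocaine against 56.8%, 66.4% and 78.1% in proestrus controls, and the groups were far apart. Library-scaled, it fell to 0.469-fold (log2 -1.09, SE 0.162, adjusted p = 0.00253, limma), and the fall passed without each library in turn (up to 0.0133). The promoter itself stayed open in all of these libraries, and the bases that differed flanked it.

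Dnmt3a was 48%, 53.7% and 47.6% open in proestrus cocaine against 68.3%, 71% and 75.2% in controls, a fall to 0.734-fold (log2 -0.45, SE 0.125, adjusted p = 0.0207, limma). The windows of Gadd45b and Dnmt3a have a GC content of 53.5% and 50.5%, against a median of 45.7% over all windows. With a correction for GC content the Gadd45b fall was -0.46 (adjusted p = 0.0223, limma), and the Dnmt3a difference was -0.00 (0.988). Gadd45a, with 44% GC, rose to 1.5-fold (log2 0.58, SE 0.181, adjusted p = 0.03, limma), with 13.5%, 14.2% and 14.1% of its window open against 8.6%, 9.19% and 11.4%. With GC correction it did not pass (0.0856), nor without proestrus cocaine 2 (0.0529) or any of 5 other libraries. Without proestrus cocaine 2, Gadd45b was at -1.12 (0.00291) and Dnmt3a at -0.53 (0.00942). The Dnmt3a call was lost without any of 4 other single libraries (up to 0.0798). It was also lost with quantile normalization (0.0587) and on the percent scale (0.116).

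Raw percentages gave 4 windows that did not overlap downwards in proestrus (Dnmt1, Dnmt3a, Tet3 and Gadd45b, where 30.2% of all windows did) and 2 upwards (Tet2 and Gadd45a, 16.7%). Tet2 had 9.48%, 6.97% and 10.8% against 5.38%, 5.74% and 5.72%, with an adjusted p of 0.0585 (limma) on the library-scaled values. Tet3 had 20.2%, 22.9% and 18.7% against 25.1%, 26.9% and 34.8%, with an adjusted p of 0.0727.

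In diestrus, Gadd45a was the single window of 9 to pass, and it was higher (2.1% of all windows higher, 0.746% lower). It was 13%, 12.5% and 14% open after cocaine against 7.51%, 8.41% and 8.31%, with no overlap, a 1.76-fold rise (log2 0.81, SE 0.181, adjusted p = 0.0391, limma). The call was lost with quantile normalization (0.0577) and without any of 5 of the 6 diestrus libraries (up to 0.176), including diestrus cocaine 3, which had glial marker peaks (log2 0.62, adjusted p = 0.176). Gadd45b was 59.8%, 34.1% and 27.5% open against 41.3%, 58.7% and 48.7%, and the groups overlapped widely. The difference between the stages in the cocaine effect did not pass for any of the 9 windows (0.0533% higher and 0.201% lower over all windows), and Gadd45b had the smallest adjusted p, 0.154 (limma, with a log2 difference of 0.88, SE 0.229).

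**Figure D5:**
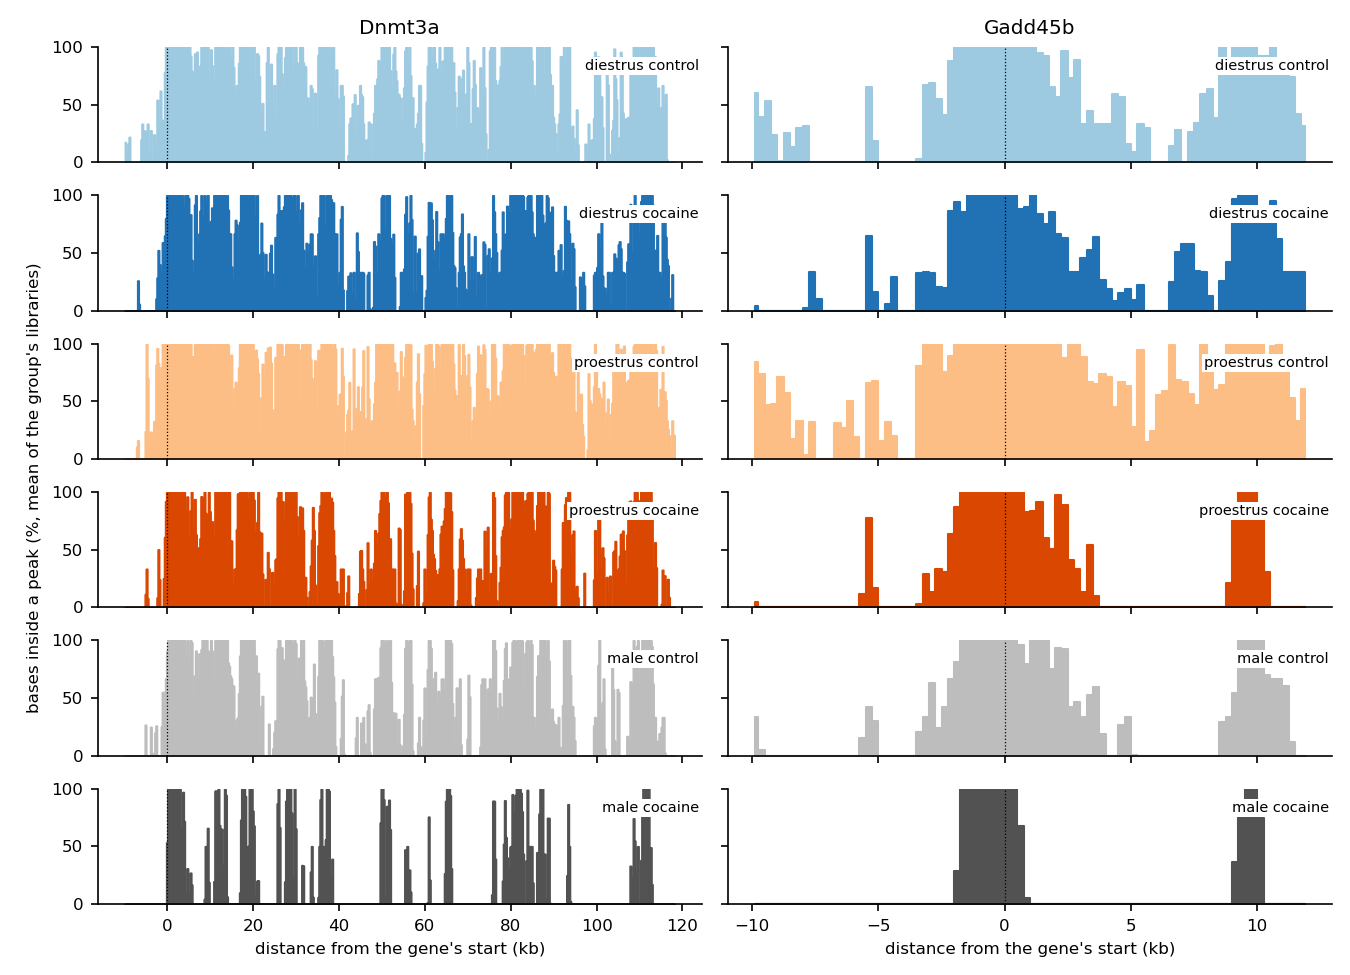
Percent of bases inside a peak along the windows of Dnmt3a (left) and Gadd45b (right), in 250-base bins averaged over the libraries of each group, against the distance from the gene's start in kb (dotted line at 0). The bases at the Gadd45b start are open in all groups, and those between the start and the downstream domain are filled in proestrus controls and thin after cocaine.

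In males, 8 of 9 windows had a lower percentage of open bases in both cocaine libraries than in any control, all but Dnmt1, and so did 74.7% of all windows. Tet1 was 2.57% and 2.33% open against 5.46%, 5.1% and 6.36%, and Tet3 8.57% and 6.94% against 26.8%, 16.1% and 25%. Library-scaled, which divides by the total of each library, Gadd45g alone passed, and it was higher (11% of all windows higher, 6.39% lower). Its log2 difference was 0.82 (SE 0.162, adjusted p = 0.00671, limma), where the median of all windows was 0.17. Its percentages, 23.6% and 21.5% against 23.9%, 25.4% and 25.3%, were slightly lower after cocaine, so the direction depended on the scale (-0.14 on the percent scale, adjusted p = 0.383). The call was also lost without male cocaine 2 (0.0798). In the cocaine effect of males minus the mean of both female stages, 1 window was higher (Gadd45g, log2 0.79) and 1 lower (Gadd45a, log2 -0.68), where 18.2% and 10.2% of all windows were called (adjusted p = 0.0114 and 0.0485, limma). Over all windows the median log2 difference in this contrast was 0.22. The Gadd45g difference did not pass with GC correction (0.313), nor did that of Gadd45a (0.0563). The Gadd45a call was also lost without most single libraries, among them male control 2 (0.132).

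Between male and female controls, of 9 windows, 3 were higher in males and 2 lower (17.3% and 20.5% of all windows). Tet1 was 5.46%, 5.1% and 6.36% open in male controls against 2.56% to 4.23% in female controls, 1.63-fold on the library-scaled values (log2 0.71, SE 0.13, adjusted p = 0.00169, limma). Dnmt3b was 1.93%, 1.44% and 2.02% open against 0.635% to 1.24%, 1.92-fold (log2 0.94, SE 0.26, adjusted p = 0.0134, limma). Gadd45a was 13.3%, 15.6% and 12.9% open against 7.51% to 11.4%, 1.5-fold (log2 0.58, SE 0.157, adjusted p = 0.0116, limma). These 3 rises also passed with GC correction, and the Dnmt3b rise was lost with quantile normalization (0.072) and without male control 3 (0.0533), that of Gadd45a without male control 2 (0.0892). Gadd45b fell by 0.74 and Dnmt3a by 0.50 on the log2 scale (adjusted p = 0.0019 and 0.00361, limma), and neither passed with GC correction (0.218 and 0.213).

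Tet1, Dnmt3b and Gadd45a thus stood higher, and Dnmt3a lower, in male than female controls in both readouts. These were the fold enrichment of single regions and the open bases of the window, which come from the same peaks and are not independent. The Dnmt3b call was lost without male control 3 in both readouts (adjusted p = 0.0828 and 0.0533, limma). That of the Gadd45a window was lost without male control 2 (0.0892). The Dnmt3a call was lost with no scaling for the region (0.26) and with GC correction for the window (0.213). Between diestrus and proestrus controls, 0 member regions passed the test of fold enrichment (0.356% higher and 0.114% lower over all regions, smallest adjusted p = 0.206, limma). Of the windows, 0 passed that of open bases (1.35% and 0.409%, smallest adjusted p = 0.189, limma). At an unadjusted p under 0.05, 2 regions were higher and 5 lower, and 0 windows were higher and 1 lower. These unadjusted counts were not set against all regions or windows. The percentages of 3 windows still did not overlap, 1 higher and 2 lower in diestrus (10.8% and 10.2% of all windows): Dnmt3b was more open in diestrus (0.817% to 1.24% against 0.635% to 0.674%), and Tet3 (19.9% to 25% against 25.1% to 34.8%) and Gadd45a (7.51% to 8.41% against 8.6% to 11.4%) were less open.

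The wider pathway was read from 26 further genes: readers of methylation, repair enzymes that excise modified bases, deaminases and cofactors. Promoters of 19 were open in all 17 libraries, among them Mbd3, a protein of the methyl-CpG binding family, with a median fold enrichment of 60.4. Those of Dnmt3l, a cofactor of germ cells, Apobec1, Apobec2 and Neil3 were open in none, and those of Apobec3 and Neil2 in 1 and 11. Of the 23 promoter regions of the 19 genes, 3 rose in diestrus and 0 fell (4.65% and 4.59% of all regions). They were Ogt, which binds Tet enzymes (1.7-fold), Zbtb33, a methyl-CpG reader encoded like Ogt on the X chromosome (1.46), and Apex1, which cuts DNA at sites left by base excision (1.41), with adjusted p of 0.0119, 0.0437 and 0.0255 (limma). In proestrus, Apex1 rose 1.43-fold (0.0298) and Smug1, a uracil glycosylase, fell to 0.673-fold (0.0354), 1 each way (2.28% and 1.97% of all regions). In males Zbtb38 alone rose, 1.63-fold (0.0157), where 3.26% of all regions did. Male controls had a higher Idh1 promoter, the enzyme that makes the Tet cofactor, at 1.37-fold (0.0105), and lower Idh2, Mbd4, Smug1 and Zbtb4 promoters (0.662 to 0.701-fold), against 12.1% of all regions higher and 11.9% lower. The median log2 differences of these promoters were 0.06 in diestrus, 0.02 in proestrus and 0.13 in males. Over all regions the medians were 0.00407, 4.78e-05 and 0.0138. The Apex1 promoter was the only one of the 23 to pass in both female stages.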

How the data were processed

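Neuronal nuclei of pooled animals were profiled by ATAC-seq in 17 libraries, grouped by their titles. The authors trimmed adapters, aligned reads to mm10 with BWA-MEM and called peaks in each library with MACS2. Versions and peak options are not given in the sources used here. Each deposited peak carried a ratio, the fold enrichment of its summit against background. The deposited −log10 p and −log10 q of a peak also came from its own library, and the authors did not scale them between libraries. No read counts were used here, so the authors' count test (DESeq2) was not run, and read totals were not used. The recovered background pileup (100% of fold steps whole within 0.05) gave the relative depth.

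Overlapping peaks of the autosomes and X were joined, and regions called in at least 2 libraries of 1 group were kept. Genes, exons and start sites were those of GENCODE vM21 on GRCm38, the build of the files, with coordinates counted from 1. Calls over all libraries were compared by Fisher's exact test (two-sided) for regions called in 4 to 13 libraries. Within a sex and stage, regions called in every library of one group and in none of the other were counted, with no p-value, since 3 against 3 cannot go below 0.1. The log2 fold enrichment of the highest summit per region, for regions called in all 17 libraries, was quantile-normalized and fitted with limma 3.58.1 (R 4.3.3) with 6 group means. Open bases per 1000000 open bases of a library, with 1 added and on the log2 scale, were fitted in the same way for gene windows open in at least 6 libraries. This measure was added after the data were seen. P-values were adjusted by Benjamini-Hochberg over all regions or windows tested, at 0.05, and measure the spread between pools.

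The members and lists were chosen with earlier results of these data known. Values of some genes of the wider pathway list are not reported here. Named regions were those that covered a coding start, separated groups or passed a fit. Each calculation was tested on simulated data. Scaling, GC content, peak strength, overlap, region definition, pseudocount and each library were varied.

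The title numbers were checked as a pairing. Deviations of same-numbered libraries correlated over 0.1 in 5 of 36 pairs for fold enrichment (-0.245 to 0.439) and in 7 of 36 for open bases (-0.357 to 0.519), so they were not taken as pairs.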

Additional observations from a re-analysis of the deposited data

Results flagged for a closer look

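The cocaine effect in males minus the mean of both female stages passed its own test at 2 member regions and 2 gene windows. At the Tet1 intron the difference was -1.21 on the log2 scale (adjusted p = 0.00142, limma), with a fall in males and a rise in proestrus. At the Gadd45a promoter it was -0.586 (adjusted p = 0.0405, limma). Over the Gadd45a window, library-scaled open bases gave -0.68 (adjusted p = 0.0485, limma). This call was lost with GC correction (0.0563) and without most single libraries, among them male control 2 (0.132). Over the Gadd45g window, library-scaled open bases gave 0.791 (adjusted p = 0.0114, limma), and on the percent scale the difference was -0.07 (adjusted p = 0.815). Both male cocaine libraries had the smallest total of open bases, and the part of this in the 4 differences was not tested beyond the settings below.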

How the results depend on the processing

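Missing calls were read at a background pileup of 6.26 to 9.55 reads, so absence of a peak is absence at this depth. Counts of member calls are small, and most changes below are of 1 or 2 regions. The cause of a change was not tested.

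With peaks of −log10 q of at least 5, 2 member regions were gained (1.21% of all regions) and 2 lost (1.01%) in diestrus. In males 5 were lost (18.9%). With this setting, 2 were called in proestrus but not diestrus controls (0.62%). Male and proestrus controls were separated by 2 in each direction (12.8% male only and 0.641% proestrus only). With the 75458 strongest peaks of each library, 2 were gained (1.56% of all regions) and 2 lost (1.21%) in diestrus. In males 1 was gained (4.08%) and 2 lost (9.35%). Between the stages, 0 were in diestrus (3.11%) and 2 in proestrus controls alone (1.04%). Male controls alone had 2 against diestrus (8.04%) and 1 against proestrus (8.09%). With windows of a fixed width around summits, which split broad domains into several (275 member windows), 3 were lost in diestrus (1.38% of all such windows), 3 gained (1.89%) and 18 lost in proestrus (6.55% of the members, 2.37% of all) and 32 lost in males (11.6% and 15%). With these windows, 4 were in diestrus (3.05% of all) and 5 in proestrus controls alone (1.1%), and 10 in diestrus (3.64% of the members, 2.9% of all) and 20 in proestrus controls against male (7.27% and 2.34%). Neighbouring windows of a domain are not independent. When peaks had to cover 50% of a region, 1 was gained in proestrus (3.18% of all regions). Then 0 were in diestrus (4.19%) or proestrus controls alone (0.99%), and 0 in diestrus against male controls (3.58%).

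For fold enrichment, the number called over all 36847 regions stands in brackets. Median centring gave 1 higher in diestrus (1939), and 1 higher (3965) and 1 lower (2299) in the male-minus-female contrast. GC correction gave 1 higher in diestrus (1957), 1 in proestrus (516) and 1 in that contrast (3055), and 2 lower in males against females (4941). Regions called in at least 14 libraries gave 3 higher in diestrus (1441 of 52318) and 3 lower in males against females (6634 of 52230). In the contrast they gave 1 higher (2776 of 50004) and 1 lower (3077 of 50004). Adding 1 to the fold enrichment gave 1 higher in diestrus (2071) and 1 in the contrast (3335). Fitting 2 groups alone gave 0 higher in proestrus (520) and 2 lower in males (2470). No scaling gave 6 lower in males after cocaine (32.9% of all regions), 0 lower in males against females (1.71%) and 8 lower in the contrast (37.4%).

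With the replicate number as a block, the libraries were fitted as pairs although the numbers did not pair them. Fold enrichment then gave 0 higher in proestrus (adjusted p = 0.152 for Tet1 and 0.141 for Tet2, limma), where 210 of 36847 regions were. In the male-minus-female contrast it gave 1 lower (2168 of 36847). Under the block, open windows gave 0 higher in diestrus (83 of 16883 windows). They gave 0 higher (561) and 1 lower (415) in proestrus and 0 lower in the contrast (1244).

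For open windows, quantile normalization gave 0 higher in diestrus (162 of 16883 windows). It gave 0 higher (1587) and 1 lower (1457) in proestrus, and 0 higher (2123) and 2 lower (1985) in the contrast. GC correction gave 0 higher (835) and 1 lower (1498) in proestrus and 1 lower in males (1579). It gave 0 lower in males against females (2832) and 0 higher in the contrast (2528). Adding 5 in place of 1 gave 2 higher in proestrus (2059) and 1 lower in males (1211). Percentages gave 1 lower in proestrus (2.33% of all windows), 0 higher and 6 lower in males (0.421% and 49.8%), 1 lower in males against females (6.59%), and 0 higher and 5 lower in the contrast (0.113% and 36.3%). On this scale Gadd45g reversed, to -0.142 in males after cocaine and -0.0662 in the contrast.

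Leaving out 1 library at a time gave the lowest and highest counts below. The share over all regions or windows also changed with the library left out and is not given for these ranges. A group left with 1 library was assumed to vary like the others. For calls, diestrus gained 0 to 1 and lost 0 to 6, proestrus gained 0 to 3 and lost 4 to 9, and males lost 10 to 18. Controls separated by 1 to 4 (diestrus) and 1 to 3 (proestrus), by 5 to 7 (male) and 2 to 7 (diestrus), and by 7 to 9 (male) and 6 to 10 (proestrus). For fold enrichment, diestrus had 0 to 3 higher and 0 to 3 lower, proestrus 0 to 2 higher and 0 to 1 lower, males 0 to 1 lower, males against females 2 to 4 higher and 0 to 3 lower, and the contrast 0 to 3 higher and 1 to 4 lower. For open windows, diestrus had 0 to 2 higher and 0 to 1 lower, proestrus 0 to 1 higher and 1 to 3 lower, males 0 to 1 higher and 0 to 1 lower, males against females 2 to 3 higher and 2 to 2 lower, and the contrast 0 to 3 higher and 0 to 1 lower.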
